A study of Mus musculus with 6 samples.

Results

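The 10 genes described here are imprinted genes of growth: H19, Meg3, Cdkn1c and Grb10, which are expressed mainly from the maternal allele, and Dlk1, Peg3, Mest, Nnat, Plagl1 and Snrpn, which are expressed from the paternal allele. They were chosen by name and not by a cut on measured values, but with earlier results of these data known. Every probe set annotated to them was taken: 23 of the 22690 probe sets on the arrays. Of these, 18 name a single gene. The other 5 name a pair of genes, namely the sole H19 probe set, which also names Mir675, and 4 Snrpn probe sets, which also name Snurf. Those 5 were kept under both names and read as signals of the pair. In all, 12393 genes were represented on the arrays by probe sets of a single gene.

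The samples were 6 brains of Swiss Albino mouse embryos at stage E11.5, each hybridised to its own Affymetrix array. The control group was 3 brains of embryos from untreated, normal mothers. The diabetic group was 3 brains of embryos from mothers with diabetes induced by streptozotocin (STZ), a toxin of insulin-producing beta cells, and per the series' design these brains were malformed. Maternal diabetes, the mother's exposure to STZ and malformation therefore cannot be told apart here. The labels do not say whether brains shared a litter, so p-values do not measure a spread between litters. They rest on the spread between these 6 brains, moderated by that of all genes or probe sets tested. Replicates 1 and 2 of both groups were run on the MOE430A chip and make up the first value table, and replicate 3 of each group, run on Mouse430A_2, makes up the second.

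Genomic imprinting is the expression of a gene from the allele of a single parent, set by DNA methylation that is laid down in the germ line and kept through development. Many imprinted genes act on growth: paternally expressed genes tend to promote it and maternally expressed genes tend to restrain it. Several of them lie in shared domains, where a non-coding RNA from the maternal allele, such as H19 or Meg3, is paired with a protein-coding gene from the paternal allele, Igf2 or Dlk1. These arrays measure total RNA of both alleles, so they show the level of a transcript and not the allele it came from.

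H19 is the host transcript of the microRNA Mir675, which is cut from its first exon, and this is why the H19 probe set carries both names. The mature sequences, from RefSeq (GRCm38.p6), are shown with the seed, bases 2 to 8, in capitals. The array signal does not separate H19 from Mir675.
mmu-miR-675-5p: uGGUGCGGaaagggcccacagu
mmu-miR-675-3p: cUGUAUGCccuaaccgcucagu

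Promoter windows are shown for Grb10, whose probe sets went apart, for the pair Dlk1 and Meg3 of a shared domain, and for Nnat. Nnat was taken for its higher signal on the diabetic array of the second table, which holds 1 array per group. Each window is the 250 bases before a RefSeq start (GRCm38.p6), 5′ to 3′ on the gene's strand. CpG dinucleotides, the targets of DNA methylation, are in capitals. They lie at chr11:12037421-12037670 (minus strand) and chr11:12027972-12028221 (minus strand) for Grb10, chr12:109452573-109452822 (plus strand) for Dlk1, chr12:109540746-109540995 (plus strand) for Meg3 and chr2:157559828-157560077 (plus strand) for Nnat.
Grb10, first start: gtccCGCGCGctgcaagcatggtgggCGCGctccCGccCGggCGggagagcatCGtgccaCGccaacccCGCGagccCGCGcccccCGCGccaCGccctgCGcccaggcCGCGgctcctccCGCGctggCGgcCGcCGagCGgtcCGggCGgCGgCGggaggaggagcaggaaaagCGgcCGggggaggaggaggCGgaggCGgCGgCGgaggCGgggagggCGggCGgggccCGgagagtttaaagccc
Grb10, second start: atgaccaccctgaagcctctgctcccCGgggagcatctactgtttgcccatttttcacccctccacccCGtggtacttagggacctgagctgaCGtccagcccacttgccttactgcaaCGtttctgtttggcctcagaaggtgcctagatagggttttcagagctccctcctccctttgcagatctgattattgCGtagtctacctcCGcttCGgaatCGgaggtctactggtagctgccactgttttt
Dlk1: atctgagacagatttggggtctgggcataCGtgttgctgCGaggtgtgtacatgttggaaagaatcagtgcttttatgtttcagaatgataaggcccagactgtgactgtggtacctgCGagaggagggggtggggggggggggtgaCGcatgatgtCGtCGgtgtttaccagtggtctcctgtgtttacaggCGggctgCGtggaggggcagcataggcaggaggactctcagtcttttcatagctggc
Meg3: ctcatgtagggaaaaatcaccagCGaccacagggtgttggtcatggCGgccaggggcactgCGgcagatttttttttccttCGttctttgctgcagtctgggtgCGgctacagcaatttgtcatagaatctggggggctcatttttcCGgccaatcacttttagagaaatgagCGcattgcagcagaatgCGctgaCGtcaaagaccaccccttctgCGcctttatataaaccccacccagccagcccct
Nnat: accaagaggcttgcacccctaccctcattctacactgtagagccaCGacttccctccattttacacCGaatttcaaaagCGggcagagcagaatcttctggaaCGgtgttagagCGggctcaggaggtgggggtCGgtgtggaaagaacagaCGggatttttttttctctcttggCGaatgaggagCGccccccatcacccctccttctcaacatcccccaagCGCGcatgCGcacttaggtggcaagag

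The first Grb10 window holds 40 CpGs, a count reached by 1.31% of the 32851 windows of the same length in the RefSeq table. The second Grb10 window and the Dlk1 window hold 8 each, the printed Meg3 window 10 and the Nnat window 12, and the median over all windows is 6. A second Meg3 window, at chr12:109545148-109545397 (plus strand) and not printed, holds 0. Windows were listed for 8 of the 10 genes, 15 in all. Searched on both strands, TGCCGC, the hexamer that the imprint-keeping zinc finger protein Zfp57 binds when methylated, occurs in windows of Meg3, Mest and Plagl1 and in 8.68% of all windows. The palindrome GGGGCCCC, a motif described for the zinc finger factor Plagl1, occurs in the Peg3 window and in 0.889% of all windows. The motifs share no stretch that would make 1 match count for both. Such matches describe these letters only.

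Signals are the deposited linear probe set values, listed for each group in the order of replicates 1, 2 and 3. A change is the difference in log2(signal + 32) between the diabetic and the control arrays of the same table, combined over both tables in limma with weights that the number of arrays sets, 0.667 for the first table and 0.333 for the second. The main value of a gene is that of its probe set with the highest mean log2 signal. It is given with the moderated standard error from limma (SE, n = 3 per group). The 8 genes with a probe set of their own of sufficient signal were tested among the 8628 genes whose mean signal reached 100. The pairs H19 with Mir675 and Snrpn with Snurf were tested among 14918 probe sets with the same minimum. Of the 23 probe sets, 22 met that minimum.

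None of the 10 genes passed the test. Limma called 0 of 10 at an adjusted p under 0.05, where it called 0 of 8628 genes (0%) and 0 of 14918 probe sets, and 0 of 10 had an unadjusted p under 0.05, where 7.64% of genes did, 3.73% being higher and 3.91% lower. The changes ran from -0.25 for Cdkn1c to 0.22 for Dlk1. For 2 of 10 genes, Cdkn1c and Grb10, each diabetic array was below every control array of its table, where 10.6% of genes tested were. None of the 10 was above them in this way, where 11.3% of genes tested were, and 21.9% were apart on either side. For 8 of 10 genes the change had opposite signs in the tables, which was so for 48.6% of genes tested. Among the 22 probe sets tested, 16 lay above 0 (51.3% of all probe sets did), 2 were apart on the lower side (10.7% of all) and 12 had opposite signs in the tables (48.5% of all). Probe sets of the same gene are not independent, and Meg3 and the Snrpn pair gave 4 each of those above 0. By gene, 6 of 10 main values lay above 0, where 52.2% of genes tested did.

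**Figure D1:**
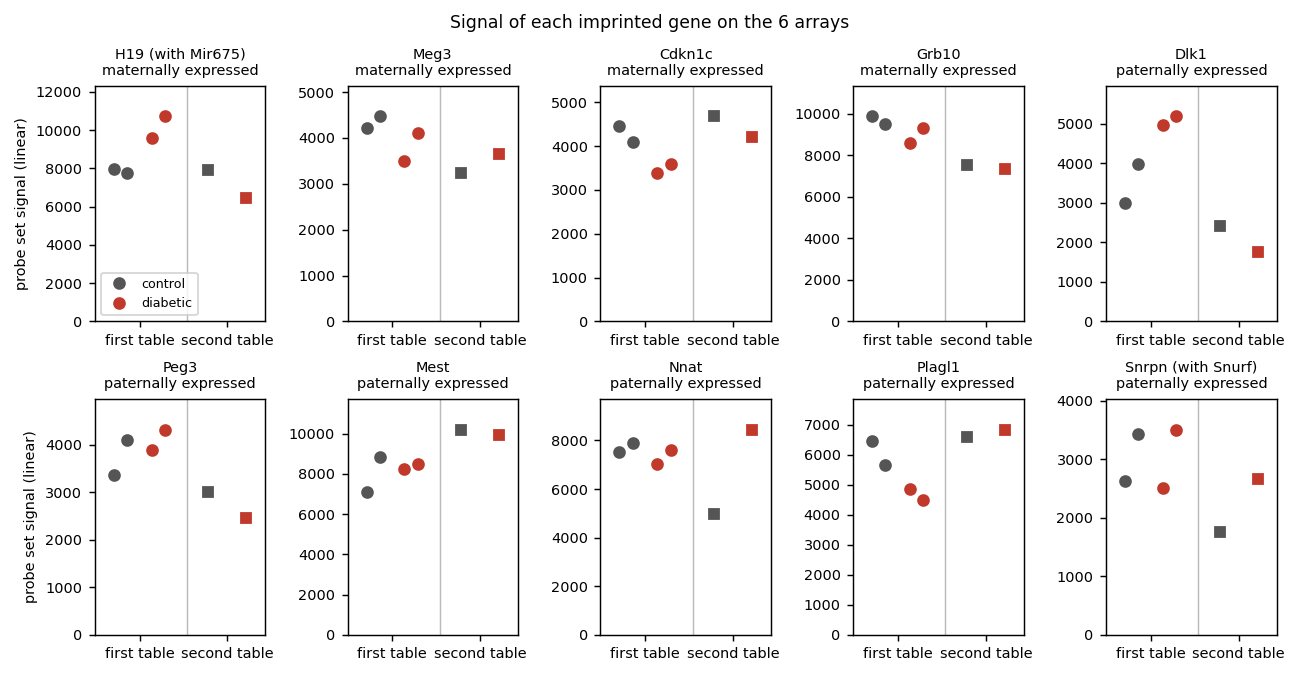
Linear probe set signal (vertical axis, from 0) of each of the 10 genes on the 6 arrays, with control arrays in grey and diabetic arrays in red, circles for the first table and squares for the second. For Cdkn1c the diabetic arrays sit at 3380, 3590 and 4219, each below the control arrays of its table (4468, 4098 and 4677), whereas for Dlk1 they sit above them in the first table and below in the second.

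Among the maternally expressed genes, Cdkn1c encodes p57, an inhibitor of cyclin-dependent kinases that restrains the cell cycle as progenitors leave it. It read 4468, 4098 and 4677 in the control brains, against 3380, 3590 and 4219 in the diabetic group. Every diabetic array was lower than each control array of its table. The log2 change was -0.25 ± 0.15 (SE, n = 3 per group), with a 95% confidence interval of -0.58 to 0.091 and a limma adjusted p of 0.711. In size this change exceeded that of 72.2% of the genes tested. It was -0.29 within the first table and -0.15 within the second, and it stayed between -0.29 and -0.20 as each array was left out in turn. Cdkn1c was the only one of the 10 genes whose change kept its sign in all 17 alternative settings, the second table alone among them. Several settings could not move it: with 1 probe set, the probe set rules left its change at -0.25, as did the filters and the replicate block. Leaving out either array of the second table repeats the first table alone. Grb10, with 3 tested probe sets, turned its sign in 1 setting, the mean over its probe sets.

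Beside Cdkn1c, the listed genes of mesenchyme and of the meninges also had lower signals in the diabetic group. All 13 were tested. In the change combined over the arrays of both tables, 0 were above 0 and 13 below it, where 52.2% of genes tested were above 0. The median log2 change was -0.30, with medians of -0.29 within the first table and -0.29 within the second. Not every marker was lower in each table. Twist1 had 0.022 within the first, and Pdgfra had 0.014 and Lum 0.65 within the second. In limma 0 passed, 2 had an unadjusted p under 0.05 (7.64% of genes tested), and 5 were apart on the lower side in both tables (10.6% of genes tested). Their summed signal was 17527, 17892 and 22164 in the control brains, against 14830, 14390 and 18291 in the diabetic group. Each diabetic array was thus below the control arrays of its table in this sum too, and no marker of the list was left out for a low signal. Of the other cell types listed, some had lower medians or a lower single marker in both tables as well, and others did not. Ttr, the marker of the choroid plexus, read -3.84 within the first table, -1.24 within the second, with a limma adjusted p of 0.527. Of 6 muscle markers 2 were tested, both below 0, with medians of -0.61 and -0.37 by table. All 4 macrophage markers were below 0 over both tables, with medians of -0.40 and -0.15 by table. Mrc1 among them was apart on the lower side, while Csf1r had 0.17 within the second table. The 4 erythroid markers tested were all above 0, with medians of 0.17 and 0.099 by table. Of 6 endothelial markers 4 were above 0 and 2 below, with medians of -0.079 and 0.35 by table. Of 5 surface epithelium markers 3 were above 0 and 2 below, with medians of 0.13 and -0.12 by table. The part of any of these cells in the Cdkn1c signal was not tested. In a bulk sample, fewer cells of a type and less RNA per cell cannot be told apart.

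H19 is a long non-coding RNA, abundant in embryonic tissues. The probe set of H19 and Mir675 gave 7991, 7784 and 7907 in the control brains, against 9583, 10719 and 6455 in the diabetic group. The diabetic arrays were the highest of the first table and the diabetic array was the lower one of the second. The log2 change was 0.36 within the first table, -0.29 within the second, and 0.14 ± 0.19 (SE, n = 3 per group) over both, with a limma adjusted p of 0.850. Leaving out diabetic replicate 2 brought it to 0.035, and with quantile normalization within each table it was -0.0039. The paternally expressed growth factor Igf2, which shares an enhancer-controlled domain with H19, had signals of 6707, 5668 and 4880 in controls and 5948, 5798 and 3630 in the diabetic group. Its log2 change was -0.070 within the first table, -0.42 within the second and -0.19 ± 0.16 over both, with a limma adjusted p of 0.772, and its second probe set had -0.56.

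Dlk1, a transmembrane protein of the Delta family that acts on differentiation, and Meg3, a non-coding RNA of the same domain made from the other parental allele, were each measured in both tables. Dlk1 read 3002, 3979 and 2403 in the control brains, against 4967, 5179 and 1763 in the diabetic group. As with H19, the diabetic arrays were above the controls in the first table and below in the second. The Dlk1 change was 0.55 within the first table, -0.44 within the second and 0.22 ± 0.22 (SE, n = 3 per group) over both, with a limma adjusted p of 0.809. It ranged from 0.010 without control replicate 1 to 0.55 without either array of the second table.

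Meg3 had 5 tested probe sets. The main one gave 4228, 4469 and 3226 in the control brains, against 3488, 4110 and 3660 in the diabetic group. Its change was -0.20 within the first table, 0.18 within the second and -0.071 ± 0.16 (SE, n = 3 per group) over both, with a limma adjusted p of 0.916. Without diabetic replicate 1 it was 0.032. The other 4 probe sets lay above 0, between 0.26 and 0.28, and 1 of them had all diabetic arrays above the controls of their table, with signals of 863, 1064 and 856 in controls and 1153, 1306 and 946 in the diabetic group. That was 1 of 22 probe sets apart on the higher side, where 11.0% of all probe sets were. Averaged over its probe sets, Meg3 had 0.21, so its direction depends on the probe set read. Rian, another non-coding RNA of that domain, had -0.053 within the first table, 1.05 within the second and 0.32 ± 0.29 over both, with 0.27 and 0.090 for its other probe sets and a limma adjusted p of 0.786.

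Grb10 encodes an adaptor protein that binds the insulin and IGF receptors and restrains growth, and it is maternally expressed in most tissues and paternally expressed in neurons. Its main probe set gave 9860, 9516 and 7524 in the control brains, against 8571, 9283 and 7317 in the diabetic group. The diabetic arrays were lower in both tables by little: -0.12 in the first, -0.040 in the second and -0.092 ± 0.15 (SE, n = 3 per group) over both, with a limma adjusted p of 0.876. The other pair of probe sets went apart from it on the second table. The former of this pair gave 2369, 2031 and 1043 in controls and 1872, 2221 and 2623 in the diabetic group, and the latter gave 627, 662 and 357 in controls and 624, 747 and 911.0 in the diabetic group. Both therefore had a higher diabetic array in the second table, with changes of 1.30 and 1.28 there, against -0.10 and 0.080 in the first table. Over both tables they had 0.37 ± 0.28 and 0.48 ± 0.25, with limma adjusted p-values of 0.752 and 0.699 over all probe sets. The mean over the 3 probe sets was 0.25. Which of the start sites shown above each probe set reads is not given in the sources used here, and the second table holds 1 array per group, so its difference has no replicate check.

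**Figure D2:**
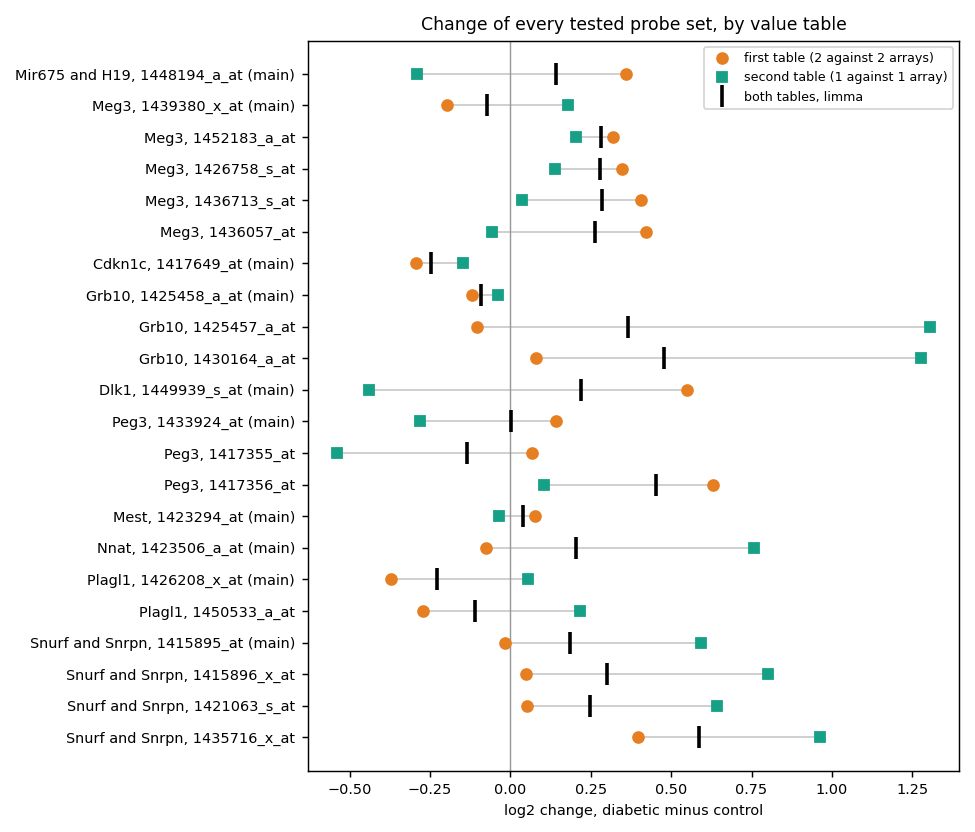
Log2 change between diabetic and control arrays (horizontal axis) of each of the 22 tested probe sets, with orange circles for the first table, green squares for the second and black bars for the limma estimate over both. The other Grb10 probe sets reach 1.30 and 1.28 in the second table, while the main Grb10 probe set stays at -0.040, and the 4 probe sets of Snurf and Snrpn lie between 0.59 and 0.96 there.

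Among the paternally expressed genes, Snrpn encodes a small nuclear ribonucleoprotein of the spliceosome that is abundant in neurons, and it shares a transcript with Snurf. The main probe set of the pair gave 2636, 3428 and 1761 in the control brains, against 2515, 3507 and 2673 in the diabetic group. The groups overlapped in the first table, and the diabetic array was higher in the second. The changes were -0.017 and 0.59, and 0.19 ± 0.21 (SE, n = 3 per group) over both, with a limma adjusted p of 0.831. The direction rests on the second table, since without either of its arrays the change was -0.017, and with array quality weights it was -0.072. All 4 probe sets of the pair lay above 0 over both tables, from 0.19 to 0.59, and the highest of them had an unadjusted p of 0.025 and an adjusted p of 0.656 in limma. This was 1 of 22 probe sets at an unadjusted p under 0.05, where 7.25% of all probe sets were. It lay on the higher side, as did 3.30% of all probe sets, and 0 of 22 lay on the lower, where 3.94% did. The probe set that names Snrpn alone had signals of 18.3 to 86.3, under the minimum, and was not tested.

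Nnat, neuronatin, is a small membrane protein of developing neurons that bears on calcium handling. It read 7529, 7880 and 4975 in the control brains, against 7015, 7613 and 8440 in the diabetic group. The groups overlapped in the first table and the diabetic array was the higher one in the second. The change was -0.076 within the first table, 0.76 within the second and 0.20 ± 0.20 (SE, n = 3 per group) over both, with a limma adjusted p of 0.801. Without control replicate 3 or without diabetic replicate 3 it was -0.076.

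Neuron markers were read beside these genes. Of 10 listed and tested, 1 was above 0 and 9 below, with a median log2 change of -0.78 within the first table, 0.16 within the second. In limma 0 passed, and 3 had an unadjusted p under 0.05, all of them lower, where 3.91% of genes tested were. Elavl4, Insm1, Ina and Nefm were apart on the lower side in both tables, 4 of 10 markers, where 10.6% of genes tested were. Their changes ran from -0.94 to -0.51 in the first table and from -0.58 to -0.023 in the second. The summed signal of all 10 was 14973, 14300 and 15708 in the control brains, against 11308, 7635 and 17477 in the diabetic group, so that it was lower on the diabetic arrays of the first table and higher on that of the second. Of 8 markers of neural progenitors, 5 were above and 3 below 0, with a median of 0.065 within the first table and 0.43 within the second. Sox1 (0.65 and 0.59) and Vim (0.35 and 0.12) were apart on the higher side in both tables, 2 of 8, where 11.3% of genes tested were. Fabp7 (-0.88 and -0.12) was apart on the lower side, 1 of 8, where 10.6% were. Sox1 signals were low, at 83.0, 113 and 47.3 in controls and 180, 160 and 87.2 in the diabetic group. In limma 0 of the 8 passed, with Sox1 and Fabp7 at an unadjusted p under 0.05, where 7.64% of genes tested were. The part of either cell type in the signals of Nnat, Snrpn and Grb10 was not tested.

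Plagl1 encodes a zinc finger transcription factor that is known to act on other imprinted genes. It read 6452, 5641 and 6576 in the control brains, against 4855, 4473 and 6830 in the diabetic group. The diabetic arrays were the lowest of the first table, with a change of -0.37, and the arrays of the second table were close to each other, with 0.054. Over both tables the change was -0.23 ± 0.17 (SE, n = 3 per group), with a 95% confidence interval of -0.60 to 0.14 and a limma adjusted p of 0.738. Its second probe set had -0.11, with -0.27 and 0.22 in the tables. As each array was left out the Plagl1 change ran from -0.37 to -0.13.

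Mest, an enzyme-like protein of the alpha/beta hydrolase fold found in mesoderm, and Peg3, a large zinc finger protein, had the changes nearest 0 of the 10. Mest signals were 7092, 8822 and 10188 in controls and 8216, 8472 and 9938 in the diabetic group, with overlapping groups. Its change of 0.039 ± 0.16 (SE, n = 3 per group) had a 95% confidence interval of -0.32 to 0.39 and a limma adjusted p of 0.956. It was -0.061 without control replicate 1 and -0.064 with quantile normalization. Peg3 signals were 3360, 4101 and 3002 in controls and 3897, 4317 and 2463 in the diabetic group, with a change of 0.0010 ± 0.17, an interval of -0.38 to 0.38 and a limma adjusted p of 0.999. It was -0.12 without control replicate 1 and -0.081 without diabetic replicate 2. Its other probe sets had -0.13 and 0.45, the latter reaching 1.09 above the control mean on diabetic replicate 2 against 0.17 on diabetic replicate 1.

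Set side by side, 3 of the 4 maternally expressed genes and 1 of the 6 paternally expressed genes lay below 0. The median log2 change was -0.082 over the maternally and 0.11 over the paternally expressed genes, a gap of -0.19, beside a median of 0.012 over all 8628 genes tested, of which 52.2% lay above 0. The gap was -0.21 on diabetic replicate 1, -0.23 on diabetic replicate 2 and -0.10 on diabetic replicate 3. In either table, 1 of 4 maternally and 3 of 6 paternally expressed genes lay above 0, and these were different genes: H19 in the first table and Meg3 in the second on the maternal side, Dlk1, Peg3 and Mest in the first and Nnat, Plagl1 and Snrpn in the second on the paternal side. Without the pairs H19 with Mir675 and Snrpn with Snurf, the maternal median was -0.092, the paternal 0.039 and the gap -0.13. Grb10 counts as maternally expressed here, although it is paternally expressed in neurons. The paternal median was -0.026 and the gap -0.039 without control replicate 1. With each gene taken as the mean of its probe sets, 3 of 4 maternally expressed genes lay above 0, their median was 0.17 and the gap was 0.020. The gap between the classes thus turned its sign with the choice of probe set.

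**Figure D3:**
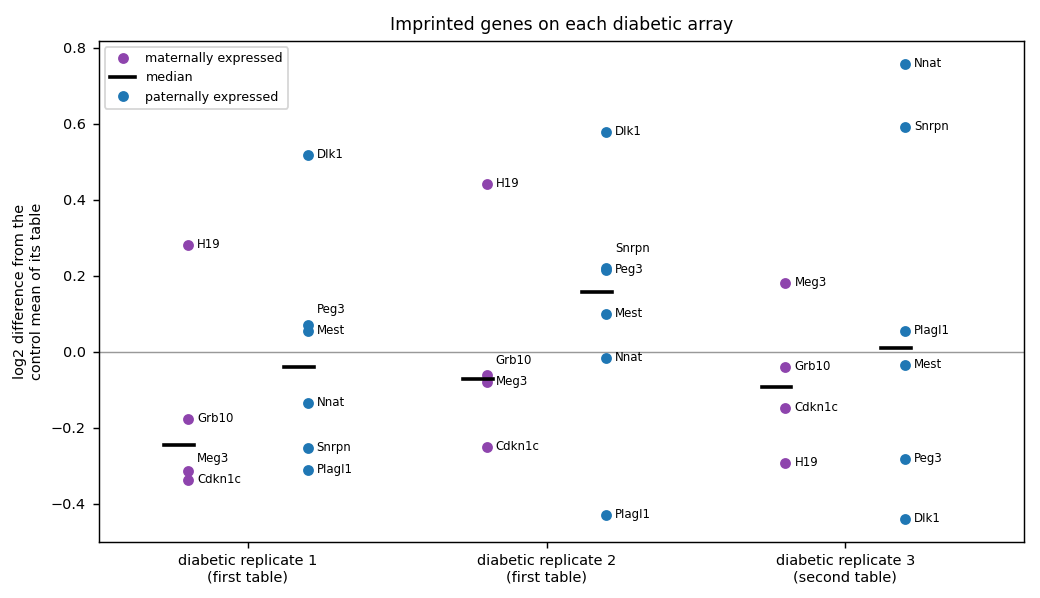
Log2 difference of each gene from the control mean of its table (vertical axis) on diabetic replicates 1 to 3, with maternally expressed genes in purple, paternally expressed genes in blue and a black bar for the median of each class. H19 and Dlk1 lie above 0 on both arrays of the first table and below 0 on that of the second, at -0.29 and -0.44, and Nnat and Snrpn are the highest on the second, at 0.76 and 0.59.

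Other imprinted genes were counted in the same way. Of 26 further maternally expressed genes listed, 9 were tested, 4 above and 5 below 0, with a median of -0.050. Of 24 further paternally expressed genes, 13 were tested, 7 above and 6 below 0, with a median of 0.012. Limma called 0 of these 22 genes, and 0 had an unadjusted p under 0.05, where 7.64% of genes tested did. Over all genes tested, 11.3% were apart on the higher side in both tables and 10.6% on the lower. Of the 9 maternally expressed genes here, 0 were on the higher side and 1, Blcap, on the lower. Of the 13 paternally expressed genes, 1 was on the higher side, Usp29, and 1 on the lower, Impact. Several of these genes are known as imprinted in the placenta or in certain cells only. On the maternal side the smallest p-values belonged to Commd1, a regulator of copper and NF-kappaB signalling, with 0.27 ± 0.17 (SE, n = 3 per group) and -0.068 for its other probe set, Blcap with -0.25 ± 0.19, Dcn, the matrix proteoglycan decorin, with -0.27 ± 0.22, and Rian. On the paternal side they belonged to Usp29, Ndn, Impact and Igf2. Usp29 had 0.32 ± 0.16, with signals of 135, 181 and 52.3 in controls and 194, 206 and 77.1 in the diabetic group, all diabetic arrays being higher in their table. Ndn, necdin, a growth suppressor of neurons, had -0.26 ± 0.17, and its 5 other tested probe sets lay between -0.39 and -0.059. Ndn had -0.43 within the first table and 0.069 within the second. Impact, a regulator of translation in neurons, had -0.21 ± 0.16.

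**Figure D4:**
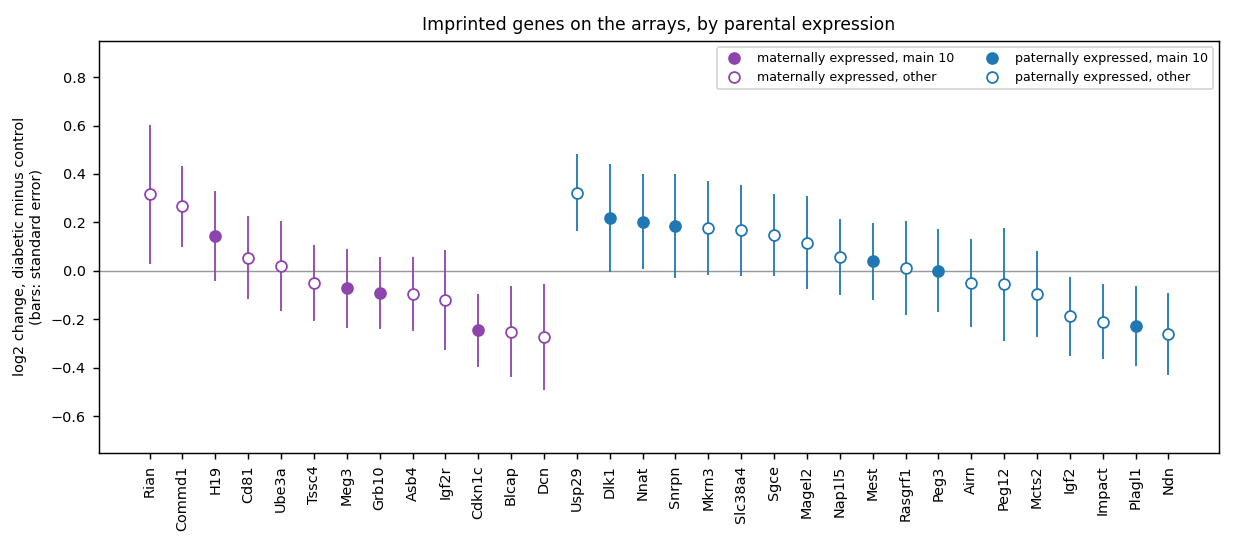
Log2 change between diabetic and control arrays (vertical axis, bars showing the standard error, n = 3 per group) of the 10 genes (filled) and the 22 other tested imprinted genes (open), with maternally expressed genes in purple and paternally expressed genes in blue. Values run from -0.27 for Dcn to 0.32 for Usp29, and 0 of the 32 passed in limma.

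Genes next to the 10 in RefSeq order were mostly not among the genes tested, and 4 were. Usp29 lies beside Peg3 and Blcap beside Nnat. Blcap, which holds Nnat within an intron and is transcribed from the other strand, had signals of 906, 592 and 615 in controls and 557, 589 and 583 in the diabetic group, and a change of -0.074 in the second table, where Nnat had 0.76. Beside Mest, Cep41 had -0.12 ± 0.20 (SE, n = 3 per group) and Copg2 -0.024 ± 0.19, with limma adjusted p-values of 0.891 and 0.981.

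Genes that keep imprints through cell division were measured as well. Of 12 listed, 7 were tested, 4 above and 3 below 0. In limma 0 passed, and 2 of the 7 had an unadjusted p under 0.05, Uhrf1 and Dnmt3a, where 7.64% of genes tested did. Uhrf1, which guides the maintenance methyltransferase Dnmt1 to newly made DNA, had signals of 2153, 2049.5 and 1156 in controls and 2653, 2735 and 2068 in the diabetic group. Every diabetic array was higher in its table, as for 11.3% of genes tested, and the change was 0.51 ± 0.16 (SE, n = 3 per group) with a limma adjusted p of 0.607, its other probe set having 0.38. Dnmt3a, a methyltransferase that sets new methylation, had -0.49 ± 0.20, but its 4 other probe sets ran from -0.29 to 0.16. Arid4b had -0.25 ± 0.16, with other tested probe sets from -0.14 to 0.23.

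The genes whose log2 values, centred within each table, came closest to those of the 10 over the 6 arrays were named as a description, with the root mean square difference as the measure. They were Usp12 for H19 (0.028), Gpx1 for Meg3 (0.030), Arhgap5 for Cdkn1c (0.029), Zfp346 for Grb10 (0.017) and Nfatc3 for Dlk1 (0.050). On the paternal side they further were Eif5a for Peg3 (0.016), Tars for Mest (0.013), Gipc1 for Nnat (0.035), Recql5 for Plagl1 (0.023) and Gria2 for Snrpn (0.049). The median over all genes tested ran from 0.19 for Grb10 to 0.33 for Dlk1. With 6 arrays many genes come close by this measure.

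Over the whole series, median signals were 221 and 222 on the controls and 227 and 210 on the diabetic arrays of the first table, and 165 and 173 on the second. Correlations of log2 values across genes were 0.937 to 0.975 between arrays sharing a table and 0.880 to 0.931 between tables. The brain markers Otx2 and En2 were present on all arrays, with signals of 433 to 1081 and 240 to 775.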

How the data were processed

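Both deposited value tables hold 1 linear intensity value per probe set and array. GCOS, the Affymetrix software, is named per the submitters' processing notes, and which algorithm it ran is not given in the sources used here. Each deposited array had a mean of about 500 after 2% of the values were removed at each end. Scanner type and fluidics protocol differed between the tables, per the file headers, and the 6 arrays were run on 6 days, so a day could not serve as a block. How background was treated stays unknown.

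Arrays were scaled to a trimmed mean of 500, log2(signal + 32) was taken, and limma 3.58.1 (R 4.3.3; two-sided moderated test, Benjamini-Hochberg over all features tested, threshold 0.05) compared the groups with the value table as a block, leaving 3 residual degrees of freedom. A log2 change on this scale understates that of genes with low signal. To the 3 residual degrees of freedom, moderation added 6.47 prior ones for genes and 6.03 for probe sets. These come from the spread of all features tested, so no standard error or p-value rests on a gene's own spread alone. The annotation gives 1 gene for 20380 probe sets, several for 691 and none for 1555, besides 64 controls, and 20351 of the first were found in RefSeq's gene table. The rule for single genes leaves out the probe sets of the 2 pairs, H19 with Mir675 and Snrpn with Snurf. These pairs were tested at the level of probe sets, a choice made after the annotation was seen. The probe set of Snrpn alone was under the minimum signal, so the pair stood in for Snrpn. Precision is limited by having 6 arrays, and the standard error of a log2 change had a median of 0.17. The fit was also run on simulated data with equal noise for all genes and planted changes larger than those of the 10 genes. That run does not show how well changes of their size would be found. The 10 genes, the other lists and the tests were chosen with earlier results of these data known. Named beside the 10 were Igf2, the neighbours, the closest genes, up to 4 other imprinted genes of smallest p per parental class and 3 imprint-keeping genes. Alternatives were other pseudocounts, filters, normalization, probe set rules, array weights, tables and left-out arrays.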

Additional observations from a re-analysis of the deposited data

How the results depend on the processing

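In the 16 alternative settings that allow a test, limma called 0 genes, and of the 10 imprinted genes 0 passed, with adjusted p-values of 0.47 or more. The second table alone, with 1 array per group, gives values and no test. The count of genes at an unadjusted p under 0.05, 659 with all arrays, was 414 without control replicate 1, 839 without control replicate 3 or diabetic replicate 3, and at most 883, with array quality weights. With quantile normalization within each table, H19 had a log2 change of -0.0039, Peg3 -0.034 and Mest -0.064, and 0 maternally and 3 paternally expressed genes lay above 0. With the mean over the probe sets of a gene, Meg3 had 0.21, Grb10 0.25, the maternal median 0.17 with 3 genes above 0, and the gap between the medians 0.020. With array quality weights, Peg3 had -0.030, Mest -0.015, Snrpn -0.072, the paternal median -0.023 with 2 genes above 0, and the gap -0.13. In the first table alone Nnat had -0.076 and Snrpn -0.017, with 3 paternally expressed genes above 0, and in the second alone the paternal median was 0.0093 and the gap -0.10. Leaving out 1 array at a time gave log2 changes from -0.20 to 0.032 for Meg3, -0.12 to 0.14 for Peg3, -0.061 to 0.12 for Mest, -0.076 to 0.32 for Nnat and -0.017 to 0.38 for Snrpn. In the same runs the maternal median was -0.16 to -0.010, the paternal -0.026 to 0.18 and the gap -0.24 to -0.039, with 1 to 2 maternally and 3 to 5 paternally expressed genes above 0. Counts of genes above 0 were added as a result after the data were seen. The causes were not tested. With the replicate number as a block, limma called 0 genes, 627 had an unadjusted p under 0.05, and no call changed. Deviations of same-numbered arrays from their group means correlated at 0.43 to 0.74 across genes, but at -0.0091 within the first table, so the numbers were not taken to pair the samples. Of the 22 tested probe sets, the lowest mean signals were 253 for a Meg3 and 255 for a Plagl1 probe set, against the minimum of 100.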
